A study of Mus musculus with 19 samples.

Results

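Cells obtain cholesterol by making it and by taking it up, and both routes are under the control of one transcription factor family. The gene set described here covers part of that system in mouse lung and holds no receptor for uptake. Hmgcs1, Idi1, Fdft1 and Sqle encode enzymes of cholesterol synthesis, Srebf2 and Insig1 encode regulators of it, and Stard4 encodes a protein that moves sterol between membranes. These 7 genes were chosen by name, and every array probe whose accession mapped to one of those symbols was taken. Probes were found for 6 of the 7 genes, which are 6 of the 19319 genes tested; no probe mapped to Idi1, which was not analysed here. Of the 12 probes for these 6 genes, 7 were kept because their lung signal stood well above background on 4 or more arrays, with 2 of these for Insig1 and 1 for each other gene.

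All mice were males of the MutaMouse (transgenic strain 40.6), which has a bacterial reporter gene in its genome for scoring mutations, and all groups shared that transgene and an age of 25 weeks. Mice were gavaged daily for 28 days with vehicle (control, 5 mice) or with benzo(a)pyrene (BaP), a carcinogen found in smoke and coal tar, at 25 mg/kg/day (5 mice), 50 mg/kg/day (4 mice) or 75 mg/kg/day (5 mice), with a piece of lung collected 3 days after dosing ended. Each of the 19 mice gave 1 two-colour array on which lung RNA (Cy5) was read against a universal reference RNA made from 11 mouse cell lines (Cy3). Every value below is therefore a log2 ratio of lung over that reference, centred within each array on the trend over spot brightness (loess). A value of 0 is the ratio of a typical spot of that brightness and not the absence of the transcript.

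Cholesterol synthesis starts from acetyl-CoA, passes through mevalonate and isoprenoid units to squalene, and ends with the closing and trimming of the sterol rings. The pathway is run by SREBP2, the product of Srebf2, a membrane-bound transcription factor that is carried out of the endoplasmic reticulum by the escort protein SCAP when sterols are low and is then cut free to enter the nucleus. Insig1 holds SCAP back when sterols are plentiful and is itself a target of SREBP2, as are the synthesis enzymes. In lung, cholesterol is a component of surfactant, which alveolar type 2 cells secrete.

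Promoters of this family can carry the sequences through which SREBP2 and its partner NF-Y act. The stretch just before the start site is shown for the measured genes that the RefSeq promoter table (build GRCm38.p6) holds, with or without a match. The table held 4 of the 7 genes, with Idi1 as the fourth. Each line gives the 250 bases before the start site on the plus strand, with capitals marking the sterol regulatory element core TCACNCCAC and the NF-Y box CCAAT, on either strand, so that a box on the other strand reads ATTGG. The regions are chr13:119690101-119690350 for Hmgcs1, chr15:82147019-82147268 for Srebf2 and chr5:28071162-28071411 for Insig1.
Hmgcs1: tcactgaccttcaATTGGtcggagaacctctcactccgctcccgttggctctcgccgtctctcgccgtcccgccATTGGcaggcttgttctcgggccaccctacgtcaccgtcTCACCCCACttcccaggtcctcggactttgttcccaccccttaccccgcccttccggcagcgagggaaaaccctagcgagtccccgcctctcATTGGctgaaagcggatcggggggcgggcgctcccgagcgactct
Srebf2: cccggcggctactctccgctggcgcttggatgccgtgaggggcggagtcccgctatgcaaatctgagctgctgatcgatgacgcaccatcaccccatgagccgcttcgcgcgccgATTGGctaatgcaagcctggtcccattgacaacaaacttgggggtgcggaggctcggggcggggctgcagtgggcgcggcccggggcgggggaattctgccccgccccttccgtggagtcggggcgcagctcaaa
Insig1: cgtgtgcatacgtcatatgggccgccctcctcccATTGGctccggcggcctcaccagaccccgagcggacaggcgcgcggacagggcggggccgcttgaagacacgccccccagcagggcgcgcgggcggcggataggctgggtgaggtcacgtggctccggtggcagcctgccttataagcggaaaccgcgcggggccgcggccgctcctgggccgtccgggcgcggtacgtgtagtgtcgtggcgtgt

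The sterol regulatory element core was present once in the Hmgcs1 promoter, at position -137 from the start site, and these letters were not in the windows of Srebf2, Insig1 or Idi1. It occurred in 408 of 32851 mouse promoters of the same 300-base window (250 bases before and 50 after the start), or 1.24%. The NF-Y box had 4 matches in the Hmgcs1 window, 3 of them before the start site, 2 in Idi1, 1 in Insig1 and 1 in Srebf2, against 37.4% of all promoters with at least 1 match. The GC box GGGCGG, the recognition letters of Sp1, had 3 matches in Hmgcs1, 5 in Srebf2, 3 in Insig1 and 1 in Idi1, and 35.7% of all promoters held it. Both strands were searched for each motif, no match of one motif overlapped a match of another in these 4 windows, and a match is only a description of the sequence. Promoter sequences of Fdft1 and Sqle are not shown.

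None of the 6 measured genes passed the test in any comparison of a BaP group with control (limma, adjusted p under 0.05 over all genes tested). By the same rule 0.0518% of all genes were called at 25 mg/kg/day, 1.09% at 50 and 4.17% at 75. At each of the 3 doses 5 of the 6 genes had a mean below control, but with arrays centred on their median in place of loess the values relative to the median gene were below 0 for 2, 2 and 3 of the 6 at the rising doses, with Stard4 at 25 mg/kg/day level with the median gene (-0.00036). By comparison 47.4%, 50.3% and 52% of all genes had a mean below control at 25, 50 and 75 mg/kg/day. The median difference of the 6 genes was -0.06 log2 at 25, -0.04 at 50 and -0.18 at 75 mg/kg/day, and the median of all genes was 0.01, -0.001 and -0.01. The 3 comparisons share the same 5 control mice, so their directions are not separate evidence. At an unadjusted p under 0.05, 1 of the 6 genes passed at 25, 1 at 50 and 2 at 75 mg/kg/day, against 7.82%, 12.7% and 17.4% of all genes. No gene of the 6 had a BaP group whose range lay clear of the control range, a pattern found in 1.46%, 4.51% and 4.7% of all genes.

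Srebf2, the gene of the transcription factor itself, had the largest mean difference of the 6 at 25 and 75 mg/kg/day. Control mice 1 to 5 had log2 ratios of -0.64, -0.89, -1.07, -0.996 and -0.994. The mice at 25 mg/kg/day had -1.02, -1.24, -1.18, -0.95 and -1.18. At 50 mg/kg/day the 4 mice had -1.11, -1.03, -1.10 and -1.14, the narrowest group of the 4. At 75 mg/kg/day the values were -1.20, -1.24, -0.97, -1.29 and -1.16. All 5 mice at 25 and all 5 at 75 mg/kg/day lay below the control mean, with 4 of 4 at 50, but the ranges overlapped: control mouse 3 lay inside the range of every treated group, and control mice 1 and 2 stood above all treated mice. The quality report in the scanner files marked the arrays of control mice 1 and 3 for evaluation. It also marked those of mouse 12 at 50 and mouse 20 at 75 mg/kg/day. The group mean was -0.92 ± 0.17 (SD, n = 5) in control and -1.17 ± 0.12 (n = 5) at 75 mg/kg/day, a difference of -0.25 log2 (SE 0.086, 95% interval -0.43 to -0.07; 0.839 times control). That difference had an adjusted p of 0.11 with limma (0.0083 unadjusted), and the differences at 25 (-0.20, adjusted p = 0.59) and 50 mg/kg/day (-0.18, adjusted p = 0.43) also missed the threshold. With the slide entered as a random block the same -0.25 at 75 mg/kg/day had an adjusted p of 0.0396 with limma, in a fit that called 1847 of all genes, and over the 37 alternative settings the adjusted p of Srebf2 at 75 lay between 0.0396 and 0.409. Within the 4 slides that held both control and 75 mg/kg/day mice, 1 of each, the difference ran from -0.52 to 0.03, lower on 3 slides and higher on 1.

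**Figure D1:**
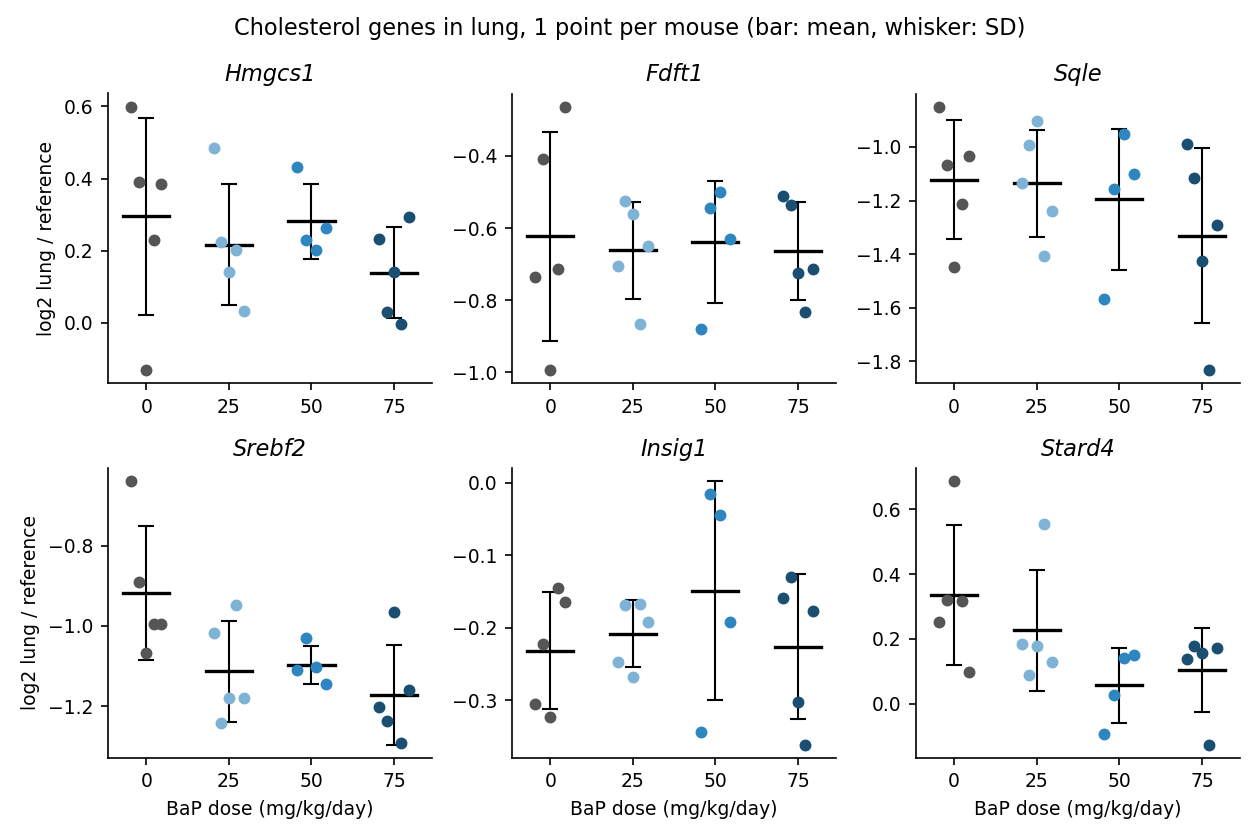
Log2 lung over reference ratio of the 6 measured genes (vertical axes, each with its own scale) by BaP dose in mg/kg/day (horizontal axes), with 1 point per mouse, the group mean as a bar and the SD as a whisker. The Srebf2 means are -0.92 in control and -1.17 at 75 mg/kg/day with overlapping ranges, and the Insig1 means stay between -0.23 and -0.15.

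Insig1, the retention protein that sits opposite SREBP2 in the feedback loop, had values close to control at every dose. Its log2 ratios were -0.31, -0.22, -0.32, -0.14 and -0.16 in control mice 1 to 5, and the mice at 75 mg/kg/day had -0.16, -0.13, -0.30, -0.36 and -0.18. The mice at 25 mg/kg/day lay between -0.27 and -0.17, and those at 50 between -0.34 and -0.02. The groups overlapped. The difference from control was 0.02 (95% interval -0.13 to 0.18) at 25, 0.08 (-0.08 to 0.24) at 50 and 0.01 (-0.15 to 0.16) at 75 mg/kg/day, and at 75 the adjusted p was 0.98 (limma), so that the interval at 75 holds changes of 0.904 to 1.11 times control. The second Insig1 probe, which stood above background in lung on 18 of 19 arrays, gave -0.02, 0.02 and -0.04 at the 3 doses. The Insig1 log2 ratio varied little among mice of one group. Its within-group SD of 0.0977 was larger than that of only 5.17% of all genes tested, where the median gene had 0.173. The Insig1 probe was the dimmest in lung of those used for the measured genes. Its mean net intensity was 81.76, against 109 for Srebf2 and 1610 for Hmgcs1. Background correction added an offset of 50 to intensities, and the part of that offset in this SD was not tested. Over the 37 alternative settings the difference at 75 mg/kg/day ran from -0.06 to 0.32. The 0.32 came with median centring, where Insig1 lay at -0.03 relative to the median gene.

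Stard4 encodes a soluble carrier that delivers cholesterol between the plasma membrane and the endoplasmic reticulum. Its log2 ratios in control mice 1 to 5 were 0.25, 0.32, 0.69, 0.32 and 0.10. At 25 mg/kg/day the mice had 0.18, 0.09, 0.18, 0.55 and 0.13, with mouse 9 standing above its group. The 4 mice at 50 mg/kg/day had -0.10, 0.02, 0.14 and 0.15, and the 5 at 75 had 0.14, 0.18, 0.16, -0.13 and 0.17, with mouse 19 standing below its group. All 4 mice at 50 and all 5 at 75 mg/kg/day lay below the control mean of 0.34 ± 0.22 (SD, n = 5), while control mouse 5, at 0.10, lay below 6 of those 9 mice. The difference from control was -0.11 at 25, -0.28 (95% interval -0.52 to -0.04) at 50 and -0.23 (-0.45 to -0.01) at 75 mg/kg/day, with adjusted p of 0.86, 0.29 and 0.27 (limma; unadjusted 0.33, 0.024 and 0.044). On the slides shared with control Stard4 was lower on all 3 at 50 and on all 4 at 75 mg/kg/day, by -0.35 to -0.07 and by -0.51 to -0.08. Each such difference set 1 mouse of the dose against 1 control mouse, and control mice 1 and 2 served for both doses. The share of all genes lower on every shared slide was not computed. Its 2 other probes rose above background in lung on 1 array each and were not used.

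Hmgcs1 encodes the cytosolic HMG-CoA synthase, which makes the substrate of the rate-limiting reductase. The controls, mice 1 to 5, had log2 ratios of 0.60, 0.39, -0.13, 0.23 and 0.39. The mice at 75 mg/kg/day had 0.23, 0.03, 0.14, 0.00 and 0.29, all 5 below the control mean but all inside the control range, since control mouse 3 was the lowest of the 19. The ranges at 25 and 50 mg/kg/day were 0.03 to 0.48 and 0.20 to 0.43. The difference from control was -0.08, -0.01 and -0.16 (SE 0.11, 95% interval -0.39 to 0.08) at the 3 rising doses, and at 75 mg/kg/day the adjusted p was 0.52 (limma).

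Sqle encodes squalene epoxidase, the first oxygen-using step of the sterol branch. Control mice 1 to 5 had log2 ratios of -0.85, -1.07, -1.45, -1.21 and -1.03, and the mice at 75 mg/kg/day had -0.99, -1.12, -1.42, -1.83 and -1.29. The ranges at 25 and 50 mg/kg/day were -1.41 to -0.90 and -1.57 to -0.95, and all groups overlapped, with mouse 19 at 75 mg/kg/day the lowest of the 19. The mean difference was -0.01, -0.07 and -0.21 (95% interval -0.53 to 0.11) at the 3 rising doses, with an adjusted p of 0.53 at 75 mg/kg/day (limma). Sqle was the most variable of the 6, with a within-group SD of 0.257 that exceeded those of 80.6% of all genes.

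Fdft1 encodes squalene synthase, the step that commits isoprenoid units to sterols. Control mice 1 to 5 had log2 ratios of -0.74, -0.41, -0.99, -0.71 and -0.26, and the mice at 75 mg/kg/day had -0.51, -0.54, -0.73, -0.83 and -0.72, inside the control range. The ranges were -0.87 to -0.52 at 25 and -0.88 to -0.50 at 50 mg/kg/day. The mean difference was -0.04, -0.01 and -0.04 (95% interval -0.29 to 0.21) at the 3 rising doses, with an adjusted p of 0.91 at 75 mg/kg/day (limma).

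**Figure D2:**
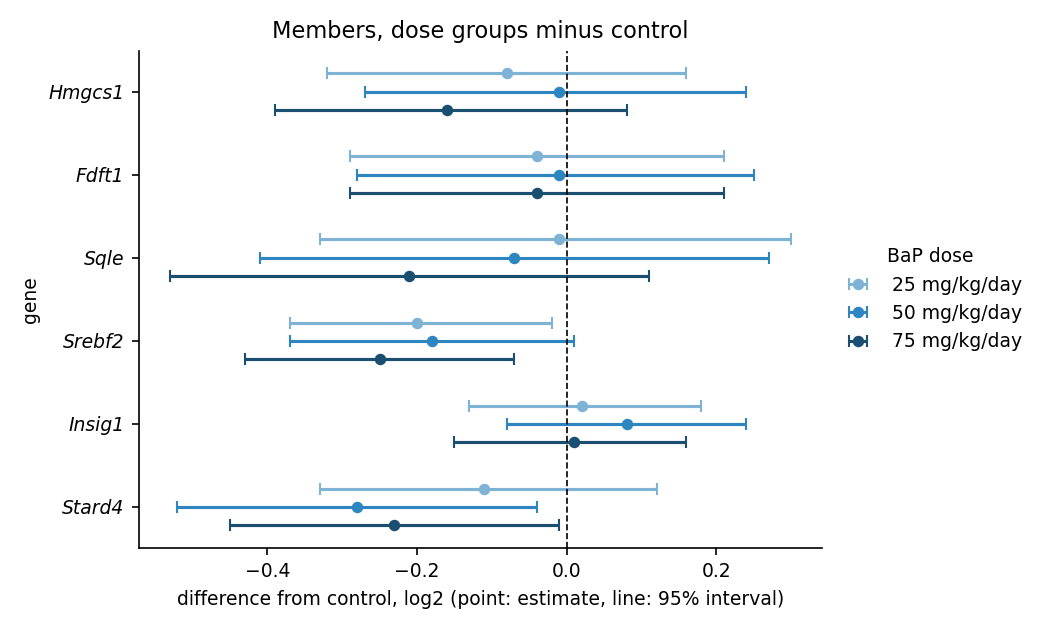
Difference from control in log2 units (horizontal axis) for each of the 6 genes (vertical axis) at 25, 50 and 75 mg/kg/day, as the limma estimate with its 95% interval. The intervals of Srebf2 at 25 and 75 and of Stard4 at 50 and 75 mg/kg/day leave out 0 before adjustment over all genes, and the widest interval reaches 0.34 on either side of its estimate.

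No gene of the 6 was called between BaP doses or in a trend over dose with limma, nor did any pass an unadjusted p of 0.05 between BaP doses or over the treated mice alone. By the adjusted rule 0.0104% of all genes were called between 25 and 50 mg/kg/day, 0.564% between 25 and 75, 0% between 50 and 75, 4.65% in the trend over all 4 dose groups and 0.585% in the trend over treated mice. At an unadjusted p under 0.05 the shares were 3.86%, 6.84%, 4.89%, 17.7% and 8.02%. Over all 4 groups the Srebf2 slope was -0.075 log2 per 25 mg/kg/day (SE 0.027; adjusted p = 0.14, unadjusted 0.013), and the Stard4 slope was -0.085 (SE 0.034; adjusted p = 0.17, unadjusted 0.020). Among treated mice only, these slopes were -0.029 (SE 0.039) and -0.062 (SE 0.049), and the difference of Srebf2 between 75 and 25 mg/kg/day was -0.06 (95% interval -0.24 to 0.12).

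The genes around these 6 were taken from 6 lists of the sterol and fatty acid pathways, of which 54 genes besides the 6 are given here. None of the 54 was called at 25 or 50 mg/kg/day (limma). At an unadjusted p under 0.05 there were 2 and 3 of the 54, against 7.82% and 12.7% of all genes. At 75 mg/kg/day 1 of the 54 rose and none fell, against 2.65% of all genes called higher and 1.53% called lower. At an unadjusted p under 0.05 (limma) there were 8 of the 54 at that dose, against 17.4% of all genes. The median difference of the 54 at 75 mg/kg/day was -0.02 log2, with 28 of them below 0.

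The gene that rose was Scap, which encodes the escort protein of SREBP2. Control mice 1 to 5 had log2 ratios of -0.26, -0.28, -0.13, -0.22 and -0.12. The mice at 75 mg/kg/day had 0.16, 0.02, 0.22, 0.22 and 0.19. At 25 mg/kg/day the values were 0.11, 0.22, -0.08, 0.02 and -0.11, and at 50 they were 0.22, -0.03, 0.02 and 0.03. Every treated mouse lay above every control mouse, at all 3 doses. Ranges clear of control, in either direction, were found in 1.46%, 4.51% and 4.7% of all genes at 25, 50 and 75 mg/kg/day. The 3 comparisons share the same 5 control mice. The difference was 0.23 at 25 (adjusted p = 0.41), 0.26 at 50 (0.12) and 0.36 log2 at 75 mg/kg/day (SE 0.074, 95% interval 0.21 to 0.52; 1.29 times control; adjusted p = 0.0073, limma). The call at 75 held in 36 of 37 alternatives and was lost with median centring (1.05, adjusted p = 0.0607), where the value relative to the median gene was 0.7; over the 37 settings the adjusted p lay between 0.00155 and 0.0607. Against 25 mg/kg/day the mice at 75 differed by 0.13 (adjusted p = 0.85).

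**Figure D3:**
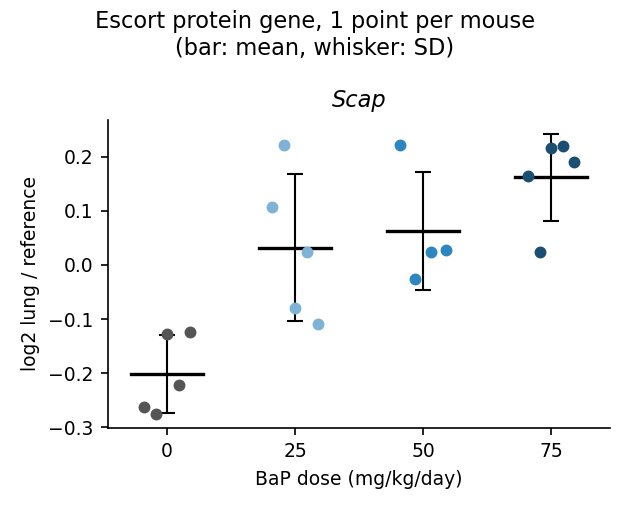
Log2 lung over reference ratio of Scap (vertical axis) by BaP dose in mg/kg/day (horizontal axis), with 1 point per mouse, the group mean as a bar and the SD as a whisker. All treated mice lie above the highest control mouse, which is at -0.12.

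The other genes of these lists that are given here did not pass the test at any dose. Of the 6 other mevalonate and isoprenoid genes none was called and 3 were below 0 at 75 mg/kg/day, with the largest differences for Acat2 (-0.19, adjusted p = 0.33, limma), which makes the first intermediate from acetyl-CoA, and Fdps (-0.13, 0.68), which makes farnesyl diphosphate. Of the 11 other genes from squalene to cholesterol none was called and 8 were below 0, with a median of -0.12. The largest in that list were Ebp, the sterol isomerase (-0.55, 95% interval -0.92 to -0.18, adjusted p = 0.095), and Msmo1, the methylsterol oxidase (-0.42, -0.73 to -0.12, 0.12), with all 5 mice at 75 mg/kg/day below the control mean for both. With median centring the values relative to the median gene were -0.08 for Ebp and -0.02 for Msmo1, and Fdps was above it at 0.17. Of the 4 other processing genes Scap was the one called, and Mbtps1, the first protease that cuts SREBP, had -0.15 (adjusted p = 0.53) on the probe with the brightest lung signal, while its 2 other probes had -0.064 and 0.197, and the first was above the median gene at 0.27 with median centring.

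None of the 10 other uptake and transport genes was called and 6 were below 0 at 75 mg/kg/day. The largest were Npc2, a lysosomal carrier of cholesterol (-0.31, 95% interval -0.57 to -0.05, adjusted p = 0.20, limma), and Lipa, the lysosomal acid lipase that frees cholesterol from its esters (0.29, 0.09 to 0.49, 0.096). With median centring Npc2 was above the median gene, at 0.16. None of the 11 efflux and oxysterol genes was called and 3 were below 0, with Ch25h, a cholesterol hydroxylase, at 0.54 (adjusted p = 0.52) and the sterol exporter Abca1 at 0.45 (0.28). None of the 12 fatty acid genes that SREBP1 drives was called, with 6 below 0, Scd1, the fatty acid desaturase, at 0.34 (0.61) and Me1, the malic enzyme, at 0.31 (0.15).

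**Figure D4:**
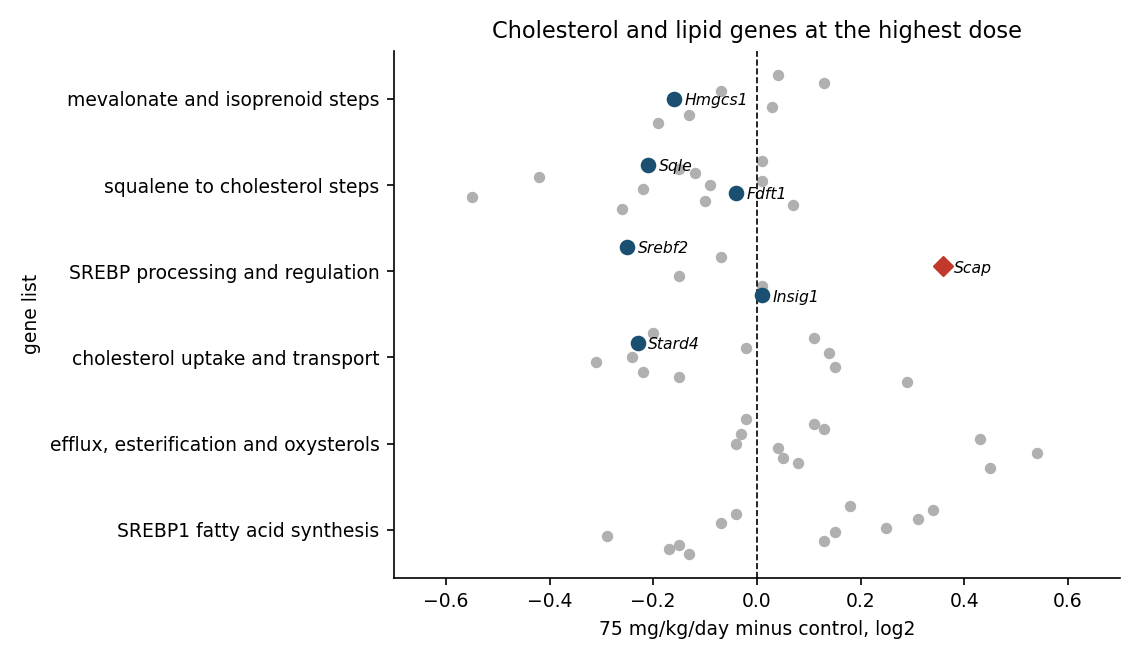
Difference of the 75 mg/kg/day group from control in log2 units (horizontal axis) for each gene given here from the 6 pathway lists (vertical axis, genes spread within a list by name order only). Dark points are the 6 genes described here, the red diamond is the gene past an adjusted p of 0.05 and grey points are the others; Scap, at 0.36, is the 1 gene called.

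Within dose groups the genes were then compared pair by pair across mice, after each dose mean was removed (15 pairs, 19 mice, 2-sided permutation within dose groups). Fdft1 and Sqle, whose enzymes act one after the other on squalene, were the only pair past the threshold, with Pearson's r = 0.71 (permutation p = 0.00079, adjusted p = 0.012 over the 15 pairs) and Spearman's rho = 0.69 (p = 0.0037, adjusted 0.056). Leaving out the 2 mice with the Fdft1 values farthest from the median gave r = 0.75. Fdft1 with Insig1 had r = 0.61 (permutation p = 0.0076, adjusted 0.057; rho = 0.59, adjusted 0.10; 0.59 without 2 mice). Hmgcs1 with Srebf2 had r = 0.59 (permutation adjusted p = 0.16; rho = 0.59, adjusted 0.10), which fell to 0.33 without 2 mice, and Sqle with Insig1 had r = 0.55 (adjusted p = 0.16), which fell to 0.23. The median r of the 15 pairs was 0.15. Removing the slide means as well gave 5 pairs past the threshold by the same permutation, with Fdft1 and Sqle at 0.80 and Hmgcs1 and Fdft1 at 0.79, where the pair Hmgcs1 and Fdft1 had 0.24 before. In this setting mice were still shuffled within dose groups without regard to slide, so its p values may be too small. Without 2 mice the r of these 2 pairs were 0.58 and 0.56, their Spearman adjusted p were 0.095 and 0.079, and Sqle with Insig1 was the pair of the 15 past the threshold by Spearman (rho = 0.71, adjusted permutation p = 0.026). With median centring in place of loess all 15 pairs were past the threshold by Pearson, with a median r of 0.89, and 6 pairs changed sign. The share of other gene pairs past the threshold was not computed in any setting, so these counts cannot be read as particular to the 6 genes. All values of one mouse share that mouse's array, so an error of an array enters both genes of a pair.

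**Figure D5:**
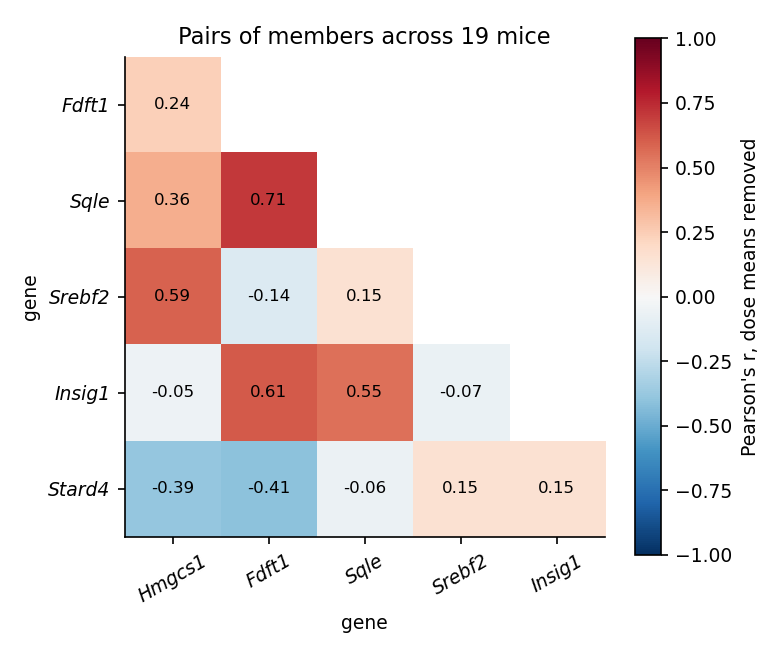
Pearson's r between each pair of the 6 genes (both axes) across 19 mice with dose group means removed, with the value printed in each square and a colour scale from -1 to 1. Fdft1 with Sqle, at 0.71, is the strongest of the 15 pairs, and the 5 pairs with Stard4 run from -0.41 to 0.15; with median centring in place of loess all 15 pairs were above 0, with a median r of 0.89.

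The genes most like the mean of the 6 standardised genes over the 19 arrays were Rrp12 (r = 0.761), Lrrc24 (0.74), Asgr1 (0.726), Pgbd5 (0.722) and Eef1g (0.718). With dose means removed they were Lrrc24 (0.83), Rexo2 (0.712), Tmub1 (0.712), Rrp12 (0.695) and Itih2 (0.69). The 6 other mevalonate and isoprenoid genes all had an r above 0 with that mean, from 0.2 to 0.68 with a median of 0.49 and Pmvk highest, while the 11 other genes from squalene to cholesterol had a median of 0.1 with 8 above 0, and the median over all genes with a symbol was 0. Scap had -0.363. These are correlations across the same 19 arrays, given as a description.

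Markers of heart muscle, fat, skeletal muscle and airway cells were set beside these values. The 8 tested of 9 cardiac muscle markers all had an r above 0 with the mean of the 6 genes, with a median of 0.49, as did 7 tested of 9 adipocyte markers (median 0.34), 9 tested of 11 skeletal muscle markers (0.21) and 4 tested of 5 club cell markers (0.34). Medians of the other marker lists were 0.24 (hepatocyte, 2 genes), 0.03 (alveolar type 2), 0.01 (proliferation), -0.02 (B cell), -0.04 (alveolar macrophage) and -0.11 (alveolar type 1). Of all genes with a symbol 50% had an r above 0. At 75 mg/kg/day the cardiac, adipocyte and skeletal muscle markers had median differences of -1.37, -1.27 and -1.53 from control with none called (limma). At an unadjusted p under 0.05 there were 2, 3 and 4 in these lists, against 17.4% of all genes. The mean log2 ratio of the cardiac markers ran from 2.13 to 4.48 in control mice and from 0.16 to 3.85 at 75 mg/kg/day, that of the adipocyte markers from 1.07 to 3.73 and from 0.12 to 3.07, and that of the skeletal muscle markers from -0.47 to 5.25 and from -0.86 to -0.11. At 25 mg/kg/day these 3 means ran from 0.88 to 2.31, 0.12 to 1.5 and -0.75 to -0.55, and at 50 from 0.18 to 4.60, 0.10 to 3.05 and -0.65 to 0.50. The skeletal muscle mean of 5.25 was that of control mouse 5 alone, and the other control mice lay between -0.47 and 0.26. The cardiac marker Ryr2 was above background on 0 arrays. Of 8 hepatocyte markers 2 passed the filter, and Ttr was above background on 0 arrays. The mean of those 2 was 4.39 in mouse 13 at 50 mg/kg/day and between 0.20 and 1.72 in the other 18 mice, and without mouse 13 the 6 genes had differences of -0.27 to 0.04 at 50 mg/kg/day, none called (limma). B cell markers had 3 of 9 called lower at 75 mg/kg/day (limma), against 1.53% of all genes, and 7 of the 9 had a mean below control. The part of any of these in the values of the cholesterol genes was not tested, and in RNA from a piece of lung fewer cells of a type and less RNA per cell cannot be told apart.

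The lung markers themselves were present, with all 9 alveolar type 2 and all 5 measured alveolar type 1 markers well above background on every array. At 75 mg/kg/day 8 of the 9 alveolar type 2 markers were below control with a median difference of -0.15, and all 4 measured club cell markers were below with a median of -0.27, none called (limma; 0 in either list at an unadjusted p under 0.05); their part in the values of the 6 genes was not tested. In the reference channel the differences of the 6 genes at 75 mg/kg/day lay between -0.17 (Stard4) and 0.04 (Insig1), and in the lung channel alone Srebf2 had -0.27 (adjusted p = 0.24, limma) and Stard4 -0.40 (0.24). The lung channel stood well above background at 19777 to 27279 of the 43379 spots of an array, arrays correlated with each other at 0.868 to 0.9799, and the number of mice limits the precision.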

How the data were processed

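Each of 19 mice had 1 two-colour array. Per the file headers the authors scanned and extracted them with Agilent Feature Extraction 10.7.3.1, which gives spot and local background intensity per dye. The authors also deposited a table of log2 ratios per spot, whose centring is not stated; it correlated with loess ratios of the scanner intensities without background subtraction at 0.9953 to 0.9978, which sets its direction as lung over reference, with column medians of -0.053 to -0.033, and it served as an alternative. Here, limma 3.58.1 in R 4.3.3 applied normexp (offset 50) and loess; outlier spots (0.2903%) were left out and controls had weight 0 in the loess. Probes were kept where lung signal exceeded background clearly on 4 or more arrays, the probe with the highest mean lung intensity stood for a gene, and 1 model of group means over all 19 arrays was fitted, with Benjamini-Hochberg adjustment over 19319 genes (12328 with a symbol through the RefSeq table, the others by accession). The fit was tested on simulated data.

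The labels name separate mice. The members and gene lists were chosen with earlier results of these data known. The genes named are all members, other list genes called against control, the 2 with the largest difference at 75 mg/kg/day in each list, and the 5 most similar by correlation. Some list genes are not reported here, and counts and ranks over the lists leave them out. Alternatives changed the background correction, normalization, filters, probe choice, blocks and samples. Lists for alveolar macrophage and proliferation markers were also tested: none of their 8 and 9 measured genes was called at 75 mg/kg/day, with median differences of -0.24 and -0.12. Single macrophage markers ran from -1.38 to 1.41 and proliferation markers from -0.26 to 0.25. At an unadjusted p under 0.05 (limma) there were 3 and 0 in these lists, against 17.4% of all genes.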

Additional observations from a re-analysis of the deposited data

Results flagged for a closer look

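Of 24 sets of values, 1 for each gene and group, 2 held a mouse set far apart from the others, where chance sets apart about 1 in 20. For Stard4 at 25 mg/kg/day mouse 9, at 0.55 log2, was separated from the next mouse by 0.797 of the range of its group. For Stard4 at 75 mg/kg/day mouse 19, at -0.13 log2, was separated from the next mouse by 0.869 of the range.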

How the results depend on the processing

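No member was called against control at 25 or 50 mg/kg/day, between BaP doses or in a trend under any of the 37 alternatives (36 for the trends). At 75 mg/kg/day the count was 0 in 36 of 37 and 1 (Srebf2, adjusted p = 0.0396, limma) with slide as a random block. Leaving out each mouse in turn gave counts of 0 to 0, and leaving out the 4 arrays marked for evaluation also gave 0. Of the list genes not called as reported, Ebp was called at 75 mg/kg/day in 7 of 37 alternatives, Msmo1 in 4, and Me1, Abca1, Npc2 and Lipa in 3 each. Median centring shifted the median of all genes by 0.140, 0.138 and 0.359 at 25, 50 and 75 mg/kg/day, and relative to it the members lay between -0.11 and 0.23 at 75. The number of correlated pairs, 1 as reported, was 1 in the deposited table, 5 with slide means also removed and 15 with median centring, where the median r was 0.89. No share over other gene pairs was computed for these settings. Pairs whose sign turned with median centring were Hmgcs1 with Insig1 (0.90) and Stard4 (0.86), Fdft1 with Srebf2 (0.88) and Stard4 (0.82), Sqle with Stard4 (0.84) and Srebf2 with Insig1 (0.92); the cause was not tested. All genes called numbered 14, 408 and 1776 with slide as a fixed block, against 10, 211 and 806 as reported, and 0, 9 and 529 with median centring. No paired analysis was possible because each mouse has its own number and no number is shared between groups; slides that groups share were used as blocks. The planned mean spot intensity was not run, since the scanner files used here give medians.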
